A study of Homo sapiens with 2 samples.

Results

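CD180 (RP105), the secreted MD proteins that pair with it and with TLR4, the co-receptor CD14 and 6 Toll-like receptors were examined as a group. These 10 genes were compared between U937 cells that carried TWIST-1 cDNA and U937 cells that carried the empty vector. The group was chosen by gene name with its log2 ratios on these arrays already known, CD180 being among the lowest of all genes, so the ratios below are a description and not a test. Each gene was represented by the brightest table entry that carried its symbol alone, and each of the 10 had 1 such entry, among 22465 genes in all. U937 is an established human line with monocytic features, which the submitters label as acute myeloid leukemia. It was transduced with a pCDH1-based lentivirus that carried TWIST-1 cDNA or with the empty vector, and cells positive for green fluorescent protein were sorted. Both groups thus carried a viral vector, and no untransduced cells were on these arrays. The promoter that drove TWIST-1 is not named in the labels or methods used here. Each condition was measured once, on 1 Affymetrix Human Transcriptome Array 2.0 from 1 RNA sample. A difference therefore carries neither an error nor a p-value, and TWIST-1 cannot be told apart from any other difference between both cultures or both arrays.

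Toll-like receptors sense microbial products through a horseshoe of leucine-rich repeats and signal through a cytoplasmic TIR domain that recruits adaptors such as MyD88. TLR4 recognises lipopolysaccharide only together with MD-2, the product of LY96, while CD14 hands the ligand over. CD180 has a related ectodomain but lacks a TIR domain, and it reaches the cell surface bound to MD-1, the product of LY86. It is known from B cells, where it promotes proliferation, and from myeloid cells, where it restrains TLR4 signaling.

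The deposited values are log2 signals, each summarising the probes of 1 locus. A log2 ratio is the value with TWIST-1 less the value with vector, and 1.2-fold, the threshold of the study's methods, is a log2 ratio of 0.26. Signals of different genes come from different probes, so the order of genes by signal is not read as an order of RNA amount. Of the 10 genes, 3 were at least 1.2-fold lower in TWIST-1-transduced cells, against 2.85% of all 22465 genes, and 0 were at least 1.2-fold higher, against 2.71%. Because the choice of genes rested on these ratios, nothing is read from the difference between the shares. The 3 lower genes were CD180, LY86 and TLR2. The other 7 stayed within 1.2-fold, 5 of the 10 had ratios above 0, 4 had ratios below 0, and the median of 0.02 stood beside 0.04 for all genes.

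CD180 had a log2 value of 5.71 on the vector array and 4.68 on the TWIST-1 array. The signal was lower with TWIST-1 by 1.03 on the log2 scale, or 2.04-fold, from 52.2 to 25.7 in linear units. Among all genes, 6 had a lower ratio than CD180. LY86, whose product MD-1 carries CD180 to the surface, had log2 values of 6.93 on the vector array and 6.34 on the TWIST-1 array. Its log2 ratio of -0.59, a 1.51-fold lower signal, was the 22nd lowest of all genes. CD180 and LY86 were 2 of the 22 genes that were at least 1.5-fold lower as deposited, and LY86 was the last of them. Both genes of this receptor complex were thus lower on the TWIST-1 array. The ratio of CD180 minus that of LY86 was -0.44 on the log2 scale, a gap between single values. In a bulk culture, fewer cells that express CD180 and less CD180 RNA in each cell cannot be told apart.

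**Figure D1:**
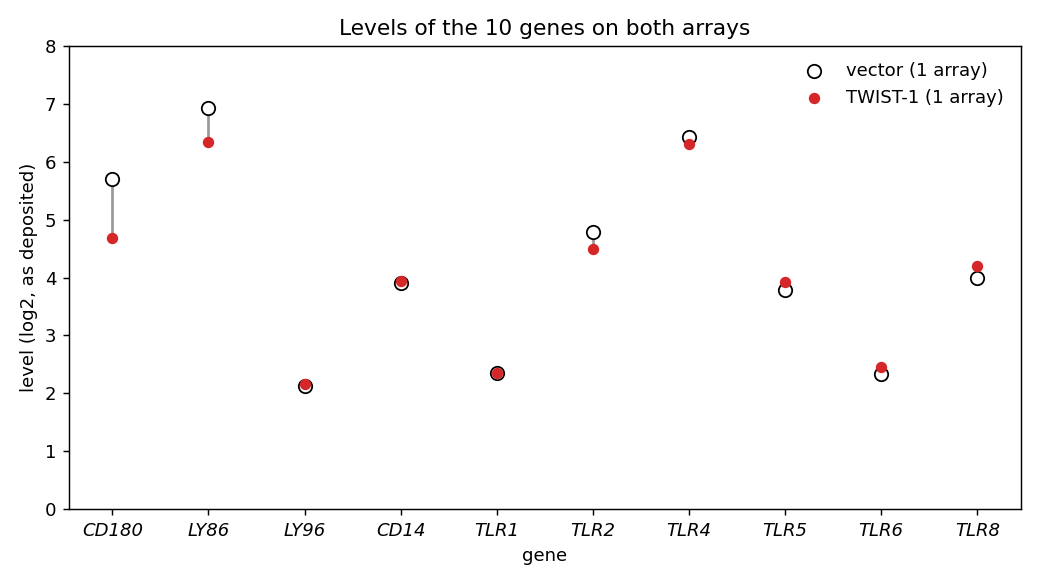
Log2 level (y axis, as deposited) of each of the 10 genes (x axis) on the vector array (open circles) and the TWIST-1 array (filled circles), 1 array each, with a line joining both values of a gene. CD180 was at 5.71 and 4.68 and LY86 at 6.93 and 6.34, while both values of TLR1, CD14 and LY96 nearly coincide.

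The other 4 scalings of the same values were set beside the deposited one. Ratios were shifted so that the median gene was at 0 (centred), arrays were matched by loess or by a repeated quantile step, or 16 was added to each linear signal (offset), which shrinks the ratios of dim genes. Centring subtracts the same amount from every ratio, so it cannot change a rank. CD180 was the 7th lowest gene as deposited and on the loess and quantile scales. With the centred scale included, its log2 ratios ran from -1.09 to -1.03. LY86 ranked 22nd or 24th from the lowest, with ratios from -0.63 to -0.59 on the same scales. The offset gave -0.71 for CD180, then the 9th lowest gene, and -0.51 for LY86, the 18th. Both were past 1.2-fold on each of the 5 scales. As a technical reference, the 92 ERCC control probe sets had ratios from -0.65 to 0.52. Their median log2 value was 3.51 on the vector array. At least 1.2-fold higher were 14 of them and at least 1.2-fold lower 3, while 1 was as low as LY86 and none as low as CD180. The 8 bacterial and phage control probe sets had ratios from -0.42 to 0.11. Of these 8, 3 were at least 1.2-fold lower and 0 higher, and none reached the ratio of LY86. Among all genes, 2.71% were higher and 2.85% lower, so controls also passed 1.2-fold.

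The sequences upstream of CD180 and LY86, the genes with the lowest ratios, are shown because TWIST-1 belongs to the basic helix-loop-helix factors, which bind the E-box, spelled CANNTG. TLR2 and TLR4 are shown beside them as a gene past 1.2-fold and as the receptor that CD180 resembles. Each line gives the 250 bases before the RefSeq start (GRCh38.p14), 5′ to 3′ on the strand of the gene, with E-box matches in capitals. The windows are chr5:67196800-67197049 on the minus strand for CD180, chr6:6588470-6588719 on the plus strand for LY86, chr4:153684030-153684279 on the plus strand for TLR2 and chr9:117704153-117704402 on the plus strand for TLR4.
CD180: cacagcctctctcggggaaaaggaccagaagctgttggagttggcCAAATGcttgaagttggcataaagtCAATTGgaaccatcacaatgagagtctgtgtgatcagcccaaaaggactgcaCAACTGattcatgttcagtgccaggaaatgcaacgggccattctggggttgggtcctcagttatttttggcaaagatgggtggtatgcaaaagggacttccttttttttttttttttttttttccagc
LY86: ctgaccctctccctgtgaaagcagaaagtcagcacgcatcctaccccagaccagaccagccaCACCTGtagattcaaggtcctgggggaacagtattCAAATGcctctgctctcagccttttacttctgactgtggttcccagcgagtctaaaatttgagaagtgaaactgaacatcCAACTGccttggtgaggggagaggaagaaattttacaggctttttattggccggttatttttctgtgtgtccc
TLR2: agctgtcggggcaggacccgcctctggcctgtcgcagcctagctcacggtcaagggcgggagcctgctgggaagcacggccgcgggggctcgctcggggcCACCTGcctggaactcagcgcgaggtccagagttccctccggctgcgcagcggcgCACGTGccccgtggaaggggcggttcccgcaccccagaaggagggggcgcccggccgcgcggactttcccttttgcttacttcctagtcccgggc
TLR4: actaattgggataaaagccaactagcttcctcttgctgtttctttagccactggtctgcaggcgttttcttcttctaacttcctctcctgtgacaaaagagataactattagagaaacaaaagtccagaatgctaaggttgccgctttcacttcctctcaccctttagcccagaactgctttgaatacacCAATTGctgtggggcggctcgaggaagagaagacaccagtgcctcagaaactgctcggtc

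The window of CD180 held 3 E-boxes, whose first bases lay 205, 180 and 128 bases before the start. That of LY86 also held 3, at 188, 153 and 73 bases. TLR2 had 2 matches, at 150 and 95 bases, and TLR4 had 1, at 60 bases. An E-box is a short and common motif. Of 35114 promoter windows of the same length, 61.8% held at least 1 match and 10.4% held at least 3, counting both strands, on which the motif reads alike. Promoter sequences were matched for 8 of the 10 genes, leaving LY96 and TLR1, and 6 of the 8 held an E-box. CD14 and TLR8 had no match in this window, and within 300 bases that include 50 after the start, CD14 had 1. A second motif, GAGGAA, 1 spelling of the site bound by the myeloid factor PU.1, was searched on both strands after the values had been seen. It was found in 23.6% of all windows and in 4 of the 8 genes, and none of the 12 E-boxes of the 8 genes overlapped it. TLR4, a gene that PU.1 is known to activate in myeloid cells, held 4 matches, the most of the 8 genes. Of all windows, 0.0513% held at least as many, but TLR4 was singled out by its count, so this share is no test. LY86 held 1, at 53 bases, and CD180 and TLR2 had no match to this spelling. Other spellings of the site were not searched, so a PU.1 site is not excluded in any window. These matches are letters in a reference sequence, and no binding was measured here.

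TLR2, which senses bacterial lipoproteins as a dimer with TLR1 or TLR6, had log2 values of 4.78 on the vector array and 4.49 on the TWIST-1 array. Its ratio was -0.30, a 1.23-fold lower signal and the 417th lowest of all genes. Centring gave -0.34, loess -0.37 and the quantile step -0.35, all past 1.2-fold, but with the offset TLR2 was at -0.18 and short of the threshold. Among the control probe sets, 2 of the 92 ERCC sets and 2 of the 8 bacterial and phage sets had ratios as low as TLR2. TLR1 had the same log2 value, 2.36, on both arrays. TLR6 had values of 2.33 and 2.45, a ratio of 0.12 that was short of 1.2-fold under each scaling. The array holds 23 background probe sets, whose log2 values ran from 1.83 to 11.09 with TWIST-1. Their median was 2.76 there and 2.68 with vector. TLR1, TLR6 and LY96 were below these medians, so ratios within 1.2-fold say little about their RNA. TLR2 was above 15 of the 23 sets on the vector array and 14 on the TWIST-1 array, CD180 above 17 and 15, and LY86 above 19 and 18. TLR4 was above 18 and 18, CD14 above 14 and 13, TLR5 above 13 and 13, and TLR8 above 14 and 14. The ratios of CD14, TLR5 and TLR8 thus come from dim signals. On the TWIST-1 array TLR2 was above 14 sets, the same as TLR8, and CD180 was above 15. The ratios of TLR2 and CD180 thus rest partly on dim values too.

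TLR1 belonged to a set of 1177 genes, or 5.24% of all, whose deposited values were identical on both arrays to the last digit. Such genes made up 7.49% of those below the median level and 2.99% of the others. How identical values arose is not stated in the sources used here, so the ratio of TLR1 is a value as deposited rather than a measured absence of change.

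TLR4 and its partners were all within 1.2-fold. TLR4, the lipopolysaccharide receptor, had log2 values of 6.42 and 6.31 on the vector and TWIST-1 arrays, a ratio of -0.11 or 1.08-fold lower. This ratio ranged from -0.16 to -0.10 over the 5 scalings and was short of 1.2-fold in each. LY96, the MD-2 gene, had values of 2.13 and 2.17, a ratio of 0.04, and CD14 had 3.90 and 3.94, a ratio of 0.03. Both signs depended on the scaling, since LY96 was at -0.00045 and CD14 at -0.01 with centred ratios. The ratio of CD180 minus that of TLR4 was -0.91 on the log2 scale and -0.96 on the loess scale, a difference between single values that was not tested.

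**Figure D2:**
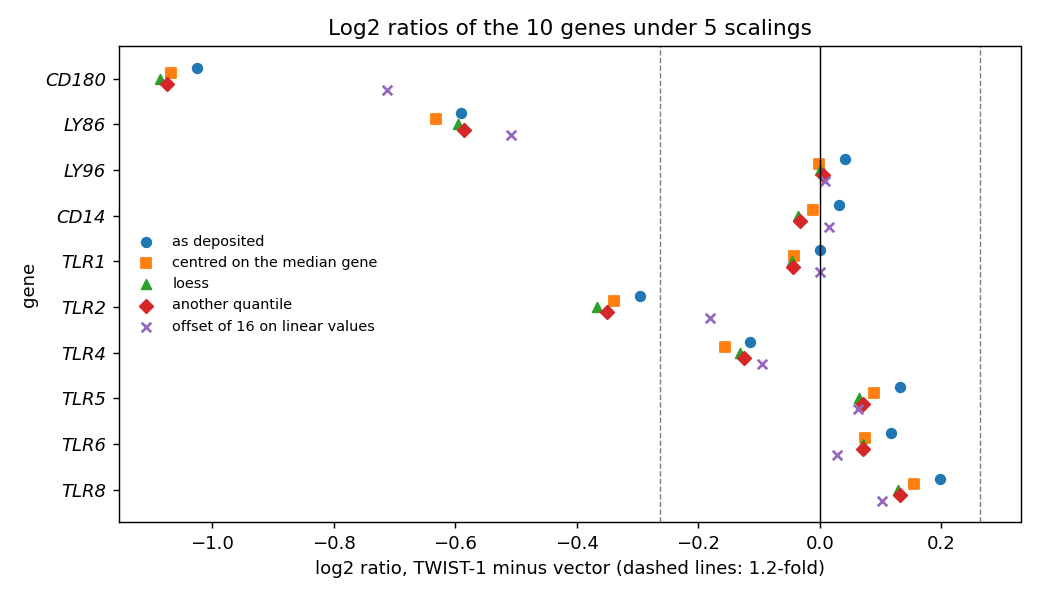
Log2 ratio, TWIST-1 minus vector (x axis), of the 10 genes (y axis) as deposited and under 4 other scalings, with dashed lines at 1.2-fold. CD180 and LY86 lie past the threshold in all 5, TLR2 in all but the offset, where it is at -0.18, and the other 7 genes in none.

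TLR5, the receptor for bacterial flagellin, had log2 values of 3.79 and 3.92 on the vector and TWIST-1 arrays and a ratio of 0.13. TLR8, an endosomal receptor for single-stranded RNA, had the highest ratio of the 10 genes, with values of 4.001 and 4.20 and a ratio of 0.20 or 1.15-fold. It was the 1556th highest ratio of all genes. On the loess scale TLR5 was at 0.07 and TLR8 at 0.13. Along with LY96, CD14, TLR1, TLR2 and TLR6, both genes lay below the median level of all genes (5.19), where the median ratio was 0.07. The other 3 had a mean level at or above it, where the median ratio was 0.0035. LY86 and TLR4 were above it on both arrays, but CD180 only on the vector array (5.71) and not on the TWIST-1 array (4.68), so CD180 passed through its higher value alone.

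**Figure D3:**
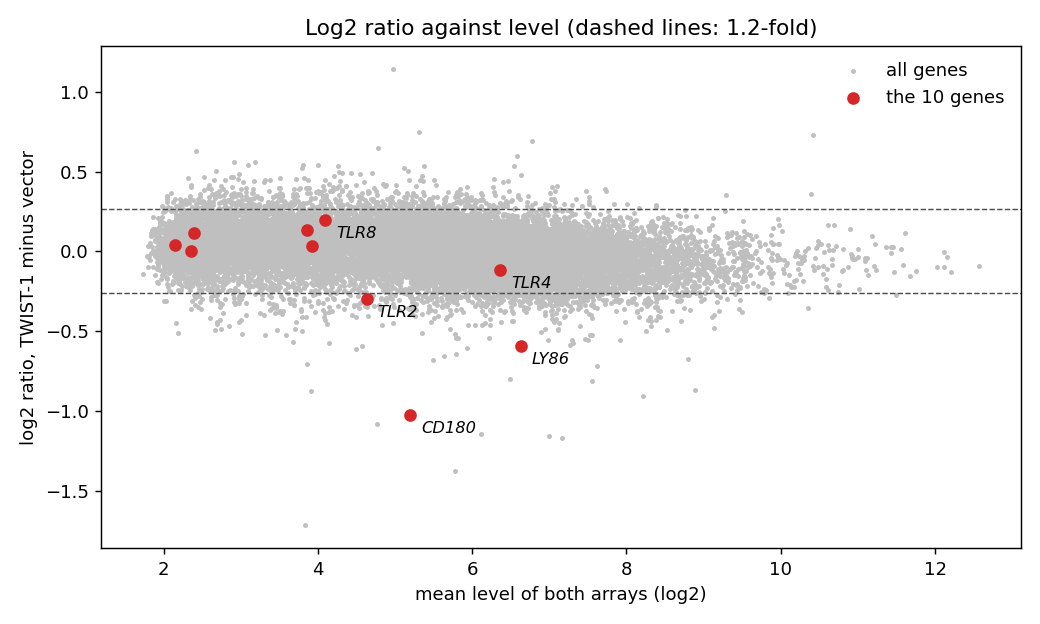
Log2 ratio, TWIST-1 minus vector (y axis), against the mean log2 level of both arrays (x axis) for all 22465 genes (grey) and the 10 genes (red), with dashed lines at 1.2-fold. CD180 (-1.03) and LY86 (-0.59) lie below the grey band, TLR2 (-0.30) just past the lower line, and the other 7 inside the lines.

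Over all genes, the middle 98% of log2 ratios ran from -0.34 to 0.33, and 8 of the 10 genes lay within it. At 1.2-fold, 609 genes were higher and 641 lower, so 48.7% of the genes past the threshold were higher. This split was 329 and 1084 (23.3%) with centred ratios, 333 and 827 (28.7%) after loess, 358 and 754 (32.2%) with the repeated quantile step and 83 and 275 (23.2%) with the offset. TWIST1 itself had log2 values of 4.13 and 4.34, a ratio of 0.21 that was short of 1.2-fold. Whether its probes cover the introduced cDNA is not known here, so it is a weak check of the labels. Of 14 monocytic markers, 12 were measured, and 11 of these lay at or above the median level on average over both arrays, as did 4 of the 5 measured B cell markers, so a level above the median does not by itself mark a cell type here. ELANE, the neutrophil elastase gene of myeloid precursors, had log2 values of 11.26 and 11.16, and CD68, a gene of the monocyte lineage, had 9.14 and 9.06. The summed linear signal of the monocytic markers was 8145 on the vector array and 7350 on the TWIST-1 array. Lysozyme (LYZ) alone gave 3171 and 2629 of these sums. Of the 12 ratios, 7 were below 0 and 5 above. LYZ, with a log2 ratio of -0.27, was the only one at least 1.2-fold lower. LYZ was within 1.2-fold on the loess scale (-0.14) and on the quantile scale (-0.26). B cell markers are of interest because B cells express CD180. None of the 5 measured was past 1.2-fold, MS4A1 had values of 2.43 and 2.49, and their sum was 209 and 216. The 6 T cell markers and the 6 markers of adherent cells were within 1.2-fold too, with sums of 135 and 130 and of 186 and 194. Of 6 erythroid and megakaryocytic markers, KLF1 (0.35) and GP9 (0.37) were at least 1.2-fold higher, and the sum was 259 and 308. All 6 ratios were above 0, with a median of 0.16. On this log2 scale no marker can be at 0. The part of these markers in the values of CD180 and LY86 was not tested.

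The other measured members of the Toll-like receptor family were within 1.2-fold. TLR3, a receptor for double-stranded RNA, had 2.20 on both arrays and TLR10 had 2.27 on both, so both were among the identical values. TLR7, which like TLR8 senses single-stranded RNA, had log2 values of 2.62 and 2.72 and a ratio of 0.10. All 3 were below the median of the background probe sets on both arrays. TLR9 was listed only together with another gene and is not given. TLR1, TLR6 and TLR10 neighbour each other on chromosome 4. Of the 2 measured protein-coding genes on either side of this cluster, KLF3 had a ratio of -0.17, FAM114A1 -0.16, PTTG2 -0.05 and TMEM156 0.05 (-0.0039 after loess), all within 1.2-fold. Around CD180 on chromosome 5, the genes before it were SREK1, a splicing regulator, with a ratio of -0.27, and MAST4 with 0.06. The genes after it were PIK3R1, a regulatory subunit of phosphoinositide 3-kinase, with -0.25, and the zinc transporter gene SLC30A5 with -0.27. SREK1 and SLC30A5 were at least 1.2-fold lower as deposited, as were 2.85% of all genes. With centred ratios SREK1 (-0.32), PIK3R1 (-0.30) and SLC30A5 (-0.31) were past 1.2-fold. On the loess scale SREK1 (-0.30) and PIK3R1 (-0.27) were past it and SLC30A5 (-0.26) was not. On the quantile scale SREK1 (-0.30) and PIK3R1 (-0.27) were past it and SLC30A5 (-0.24) was not. With the offset none of the 4 was. The lowest ratio of a neighbour under any of the 5 scalings was -0.32, and the ratio of CD180 nearest to 0 was -0.71. Whether the values of CD180 and its neighbours are linked was not tested.

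The genes closest to CD180 in their levels on both arrays were GON7 (distance 0.42 in log2 units, over 2 arrays), C2orf69 (0.45) and RNU5E-4P (0.45). Their log2 ratios were -0.51, -0.41 and -0.39. The distance includes the ratio and compares signals of different probes, so it describes array values only.

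For the pathway downstream, 79 genes in 8 lists were considered, of which 69 were measured. Of these, 7 were at least 1.2-fold lower (10.1%, against 2.85% of all genes) and 0 were higher. Ratios were below 0 for 58.0% of them and for 34.8% of all genes, and the medians were -0.02 and 0.04. These comparisons were not matched for level. At or above the median level were 43 of the 69, of which 4 were lower, against 475 of the 11233 genes there. The median ratio of all genes at that level was 0.0035. The lists were drawn up with earlier results of these arrays known, so the shares describe these 2 arrays and were not tested.

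**Figure D4:**
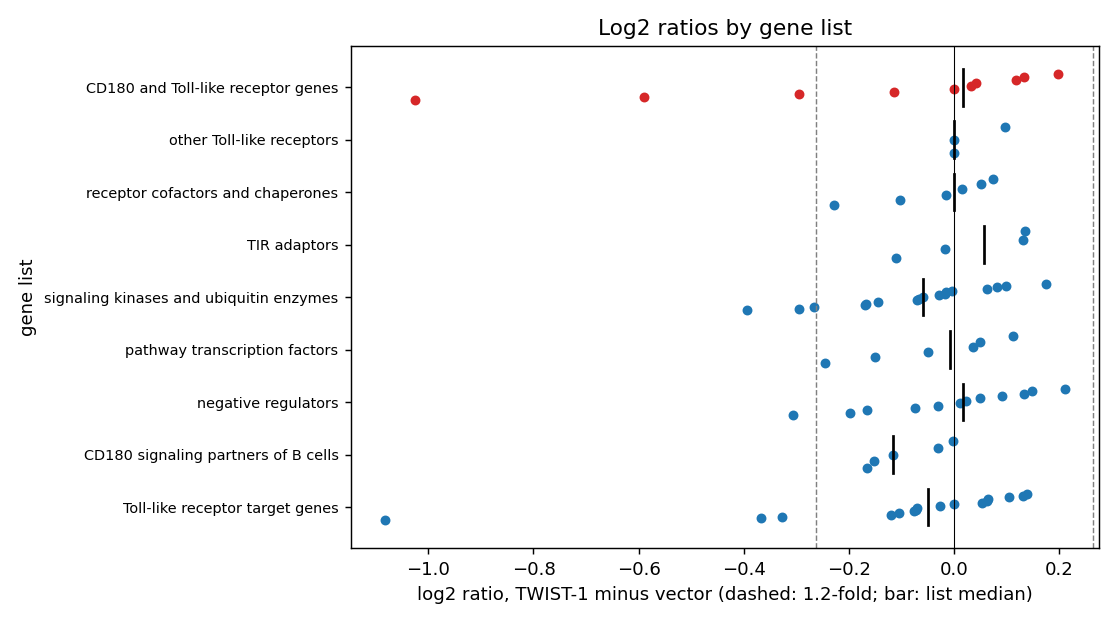
Log2 ratio, TWIST-1 minus vector (x axis), of each measured gene in 9 gene lists (y axis), with a bar at the list median and dashed lines at 1.2-fold. The lower genes outside the red group are TBK1, CHUK and TRAF6 among the kinases and ubiquitin enzymes, TNFAIP3 among the negative regulators, and CXCL8, IL1B and TNF among the targets.

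Receptor cofactors and chaperones bring the receptors to their ligands and to the right compartment. Of 7, 6 were measured and none was past 1.2-fold as deposited, with a median of -0.00086. The lowest was the scavenger receptor gene CD36, a helper of TLR2, with log2 values of 2.75 and 2.52 and a ratio of -0.23. CD36 passed 1.2-fold on the centred (-0.27), loess (-0.28) and quantile (-0.28) scales. The highest was the lipopolysaccharide-binding protein gene LBP at 0.07. UNC93B1, which escorts receptors to endosomes, was at 0.02 and CNPY3, a folding factor for several receptors, at -0.02.

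TIR adaptors couple the receptors to kinases. Of 6, 4 were measured, none was past 1.2-fold, and the median was 0.06. MYD88, the adaptor of most family members, had log2 values of 7.90 and 7.89 and a ratio of -0.02. TIRAP, which links MyD88 to TLR2 and TLR4, was the lowest at -0.11. SARM1 was the highest at 0.13, and TICAM1, the TRIF gene, was also at 0.13.

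Among 22 kinases and ubiquitin enzymes, 17 were measured, 3 were at least 1.2-fold lower, none was higher, and the median was -0.06. TBK1, the kinase that activates IRF3, had log2 values of 5.92 and 5.53 and a ratio of -0.39. CHUK, which encodes the IKK-alpha subunit, had 4.97 and 4.67, a ratio of -0.30. TRAF6, the ubiquitin ligase that acts after the IRAK kinases, had 6.33 and 6.06, a ratio of -0.27. These 3 were past the threshold on the centred, loess and quantile scales too, and TBK1 alone with the offset. IRAK2, a kinase of the MyD88 complex, was the highest at 0.17.

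None of 6 transcription factor genes of the pathway was past 1.2-fold, and their median was -0.0078. REL, an NF-kB subunit gene, was the lowest at -0.25, which became -0.29 and passed the threshold with centred ratios. IRF7, which induces interferon genes, was the highest at 0.11. Of 12 negative regulators, TNFAIP3, the A20 gene, was the only one past 1.2-fold, with log2 values of 6.68 and 6.37 and a ratio of -0.31 that was short of the threshold with the offset. ATF3 was the highest at 0.21, and the median was 0.02. IRAK3, the kinase-like inhibitor of myeloid cells, was at -0.20.

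In B cells, CD180 signals through kinases such as LYN and BTK. Of 6 genes of that list, 5 were measured. None was past 1.2-fold, all 5 ratios were below 0, and the median was -0.12. PRKCB was the lowest at -0.17 and LYN the highest at -0.0016. Signs in this list moved with the scaling, since LYN and BTK were above 0 on the loess scale.

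All 16 target genes that the receptors are known to induce were measured, 3 were at least 1.2-fold lower, none was higher, and the median was -0.05. The chemokine gene CXCL8 had log2 values of 5.31 and 4.23 and a ratio of -1.08, next to that of CD180. The cytokine genes IL1B and TNF followed, with values of 4.25 and 3.88 (-0.37) and of 6.23 and 5.90 (-0.33). IL1B was short of 1.2-fold with the offset. The other 13 were within 1.2-fold under each scaling, and CCL4 was the highest at 0.14. The labels name no receptor ligand among the treatments of these cells.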

How the data were processed

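RNA from U937 cells transduced with vector or with TWIST-1 was measured once for each condition. The values deposited by the authors are log2 signals, which the study's methods describe as quantile-normalized. Over all table entries their median was 3.90 with vector and 3.97 with TWIST-1, so both arrays did not share the same distribution. Affymetrix Expression Console is named in the notes of the submitters, and how background was corrected and probes summarised was not stated there. Values were used as deposited, from 1.31 to 13.3 on the log2 scale. Dim genes may have compressed ratios, which was not tested here. Depth does not apply to arrays, and their number (1 per condition) limits the precision, so no test was made and no p-value was computed.

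Of 70523 table entries, 23781 carry 1 gene symbol, 1543 carry several and were not used for naming, and 45199 are unnamed here. Symbols were matched by gene identifier to RefSeq (GRCh38.p14) for 21497 entries. The brightest entry stood for a gene. The members and lists were chosen with earlier results of these data known. Named were the 10 members, TWIST1, the other Toll-like receptors, each list gene past 1.2-fold, the highest and lowest of each list, the 2 genes on either side of CD180 and of the TLR1 cluster, the 3 genes nearest to CD180 in level, and a few others named after their values were seen (UNC93B1, CNPY3, MYD88, TICAM1, IRAK3, BTK, the markers ELANE, CD68, MS4A1, LYZ, KLF1 and GP9). Promoters came from RefSeq. The planned comparison of member proteins was not run.

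Alternatives were centred ratios, cyclic loess (span 0.7, 3 iterations), a repeated quantile step, an offset of 16, the mean of a gene's entries, a 1.5-fold threshold, restriction to genes no dimmer than the median, and promoter windows of 300 bases. Selection, counting and motif search were tested on simulated data. The versions were R 4.3.3, limma 3.58.1, Python 3.11.15, numpy 2.4.6 and pandas 2.3.3.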

Additional observations from a re-analysis of the deposited data

How the results depend on the processing

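The number of members at least 1.2-fold lower was 3 as deposited, with centred ratios, on the loess scale, with the repeated quantile step and with the mean of all entries of a gene, which changes nothing for members with 1 entry each. It was 2 with the offset of 16, against 1.22% of all genes, and 2 at 1.5-fold, against 22 of 22465 genes. Once genes dimmer than the median were left out, it was 2 of 3 members, against 475 of 11233 genes. TLR2 dropped out each time. CD180 passed the restriction to genes no dimmer than the median only through its vector value. None was higher under any of these settings. No member past 1.2-fold changed sign. The 7 pathway genes that were lower became 9 with centred ratios, 8 with loess, 8 with the quantile step, 3 with the offset, 1 at 1.5-fold and 4 without the dimmer genes. Of all genes, the 609 that were higher became 329 with centred ratios, 333 with loess, 358 with the quantile step, 83 with the offset, 7 at 1.5-fold and 186 without the dimmer genes. The 641 that were lower became 1084 with centred ratios, 827 with loess and 754 with the quantile step. They became 275 with the offset, 22 at 1.5-fold and 475 without the dimmer genes. The stricter threshold, the offset and the smaller set of genes lower these counts by construction, centring subtracts 0.04 from every ratio, and for the loess and quantile steps the cause was not tested. An E-box was found in 6 members within 250 bases and in 7 within 300. With 1 array per condition, no replicate could be left out. No paired analysis was possible because each condition has 1 array, and signal over background could not be set per gene.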
